A study of Homo sapiens with 6 samples.

Results

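Structural RNA repeats are the stretches of the human genome that a repeat annotation assigns to ribosomal RNA (rRNA), the 7SL RNA of the signal recognition particle (class srpRNA), small cytoplasmic RNAs (scRNA, which here means BC200 and the Y RNAs), 7SK (the class called RNA), small nuclear and U-type small nucleolar RNAs (snRNA) and transfer RNA (tRNA). A locus was a member if the third field of its repeat name gave any of these 6 classes and if it had an entry in at least 1 of the 6 deposited tables. That rule used no measured difference and found 1399 of the 728165 repeat loci in the tables, made up of 211 rRNA, 299 srpRNA, 268 scRNA, 73 RNA, 455 snRNA and 93 tRNA loci. Fragments were counted as own-strand when the transcript strand equalled the strand of the repeat, and 924 of the 1399 loci had any such fragment.

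The genes behind these repeats make RNAs that work as RNA. Ribosomal RNA forms the core of the ribosome, 7SL carries the proteins that bring nascent secretory proteins to the endoplasmic reticulum, 7SK holds the elongation factor P-TEFb in check, Y RNAs bind the Ro protein, BC200 is a primate RNA derived from an Alu element, and the U RNAs splice pre-mRNA or guide the cutting and modification of other RNAs. Mature forms of these RNAs generally end without the long poly(A) tail of an mRNA, and most of the annotated copies are pseudogenes that were copied back into the genome.

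The libraries came from SW480, an established line of human colon adenocarcinoma cells. Cells had been transduced with a lentivirus (pLENTI with a CMV promoter) that carried either the fluorescent protein Clover, as control, or Z18trunc, a C-terminally truncated ZC3H18, and kept under puromycin selection, with 3 separately made lines and 3 libraries in each group. Both groups kept the cells' own genes for ZC3H18, a protein that joins the cap-binding complex to nuclear RNA surveillance, so the groups compare forced expression from a strong viral promoter and not an edited gene. RNA was selected for poly(A) and sequenced with strand kept. The comparison asks whether transcripts of these repeats in poly(A)-selected RNA differ in abundance when the truncated protein is present. Fragments of tailed transcripts and of RNA without a tail that passed the selection cannot be told apart in these libraries.

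Copies whose values differed are shown here from the hg38 genome, the build of the deposited coordinates, read in the direction of the repeat.
The U17 snoRNA has a pair of genes on chromosome 1 whose values went apart, and they were identical at 194 of 208 aligned positions. Capitals mark the bases at which they differ:
SNORA73B (chr1:28508558-28508759, plus strand): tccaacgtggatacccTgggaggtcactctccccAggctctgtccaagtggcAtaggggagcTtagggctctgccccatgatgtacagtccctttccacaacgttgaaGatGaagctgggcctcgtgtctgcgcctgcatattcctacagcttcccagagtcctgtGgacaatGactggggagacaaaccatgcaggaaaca
SNORA73A (chr1:28507365-28507571, plus strand): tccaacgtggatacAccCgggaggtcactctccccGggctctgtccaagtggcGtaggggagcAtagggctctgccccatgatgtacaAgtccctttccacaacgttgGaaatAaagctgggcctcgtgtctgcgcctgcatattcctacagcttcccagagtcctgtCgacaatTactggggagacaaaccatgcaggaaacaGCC
Most tRNA fragments came from a pair of loci in a stretch of chromosome 1 where GENCODE 44 lists pseudogenes of mitochondrial genes. Capitals mark GGTTCGA, which in nuclear tRNA genes is the core of the B box used by RNA polymerase III. Whether it has that role at this mitochondrial-like pair was not tested:
tRNA-Gln-CAA_ (chr1:629499-629570, minus strand): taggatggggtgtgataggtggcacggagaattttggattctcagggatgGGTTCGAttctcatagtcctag
tRNA-Ser-TCA(m) (chr1:632619-632685, minus strand): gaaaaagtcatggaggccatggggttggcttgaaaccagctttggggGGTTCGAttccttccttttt

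The libraries held 18226033 to 22463310 aligned fragments, and levels are given as counts per 1000000 of these (CPM). Where a locus has no fragment, 3 counts remain possible, which is 0.134 to 0.165 CPM depending on the library, and this limit covers counting error only. ZC3H18, the targeted gene, stood at 57.2 ± 5.39 TPM in the Clover libraries and at 763 ± 31.2 TPM in the Z18trunc libraries (SD, n = 3 each), a log2 difference of 3.72 ± 0.09 (SE; limma, adjusted p = 3.21e-05), as the labels say. Of 9 colon epithelial markers, 7 were at 1 TPM or more in all libraries, with CDX1 and LGALS4 under 1 TPM in all of them, and the summed level of the list was 22872 to 24914 TPM. The keratins KRT8, KRT18 and KRT19 gave most of that sum. CDX2 had means of 47.5 TPM in Clover and 45.2 TPM in Z18trunc, and VIL1 had 12.3 and 13.4 TPM. Of 7 markers of other cell types only COL1A1 and PMEL reached 1 TPM in all libraries, and that list summed to 2.83 to 4.74 TPM. Repeats as a whole stood higher in Z18trunc on the CPM scale, with a median log2 difference of 0.17 over the 12689 loci tested and 0.21 over the 938 subfamilies, and TMM scaling brought these medians to 0.00 and 0.01. Differences of the structural RNAs are therefore also given on the TMM scale where that changes the reading.

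Members held 0.956 to 1.21% of all aligned fragments, and rRNA alone held 95.7 to 97.6% of the members' fragments. Class sums did not separate the groups for any of the 6 classes on their own strand. The exact two-sided permutation test of 3 against 3 libraries cannot give a p below 0.1, and its p was 0.2 for srpRNA, 0.3 for tRNA, 0.4 for rRNA, 0.6 for RNA, 0.7 for scRNA and 1 for snRNA, or 0.8 to 1 after Benjamini-Hochberg adjustment over the 6 classes. With TMM scaling all Z18trunc libraries lay below all Clover libraries for rRNA, srpRNA, scRNA and tRNA, and on uniquely mapped fragments the direction turned for snRNA and tRNA, with log2 differences of 0.20 and 0.67 and no overlap. In bulk libraries a lower level in every cell and fewer cells with the RNA cannot be told apart.

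**Figure D1:**
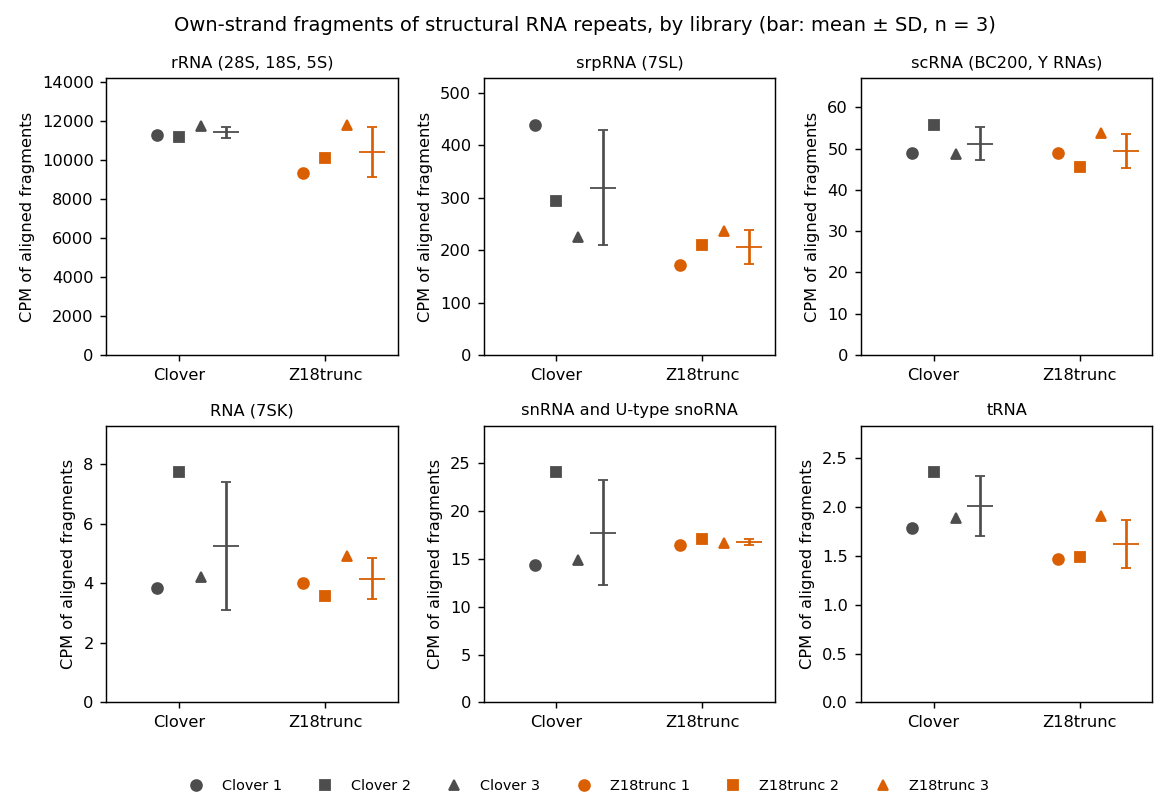
Own-strand CPM (linear axis from 0) of each structural RNA class in the 6 libraries, with Clover in grey and Z18trunc in orange and the bar at the mean ± SD of 3 libraries. In all 6 panels the groups overlap, with Clover replicate 1 highest for srpRNA at 439 CPM and Clover replicate 2 highest for snRNA at 24.1 CPM.

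rRNA was by far the most abundant class. It stood at 11319, 11209 and 11742 CPM in Clover replicates 1, 2 and 3 and at 9319, 10100.2 and 11832 CPM in Z18trunc replicates 1, 2 and 3. The highest and the lowest library were both Z18trunc, so the groups overlapped. Group means were 11423 ± 281 CPM in Clover and 10417 ± 1286 CPM in Z18trunc (SD, n = 3 each), a mean log2 difference of -0.14. With TMM scaling the log2 difference was -0.31 and the groups no longer overlapped (exact permutation p = 0.1).

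Within the class, LSU-rRNA_Hsa is the 28S RNA of the large ribosomal subunit and SSU-rRNA_Hsa the 18S RNA of the small one. Loci of 28S summed to 9444 ± 331 CPM in Clover and 8619 ± 993 CPM in Z18trunc (SD, n = 3), a log2 difference of -0.13 ± 0.07 (SE; edgeR quasi-likelihood test, adjusted p = 0.235). Loci of 18S summed to 1974 ± 156 CPM and 1794 ± 295 CPM (SD, n = 3), a log2 difference of -0.14 ± 0.09 (SE; edgeR, adjusted p = 0.330). Both differences were small and negative and did not pass this test, while edgeR with TMM scaling and DESeq2 with its own size factors called both families lower. No share over all subfamilies is given for those settings, so these calls have no background beside them. The 5S RNA, made by RNA polymerase III, was far rarer in these libraries. Its 106 loci, of which 67 had own-strand fragments, summed to 2.90, 6.01 and 3.83 CPM in the Clover libraries and 4.27, 4.82 and 3.96 CPM in the Z18trunc libraries, with the lowest and the highest value both in Clover.

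Almost no rRNA fragment had a single place in the genome. Only 2.36% of the class's estimated fragments were uniquely mapped, against 45.7% for srpRNA and 62.4% for snRNA, and 99.8% of the class came from the 63 rRNA loci within 5% of their consensus. The 4 loci with the most fragments held 52.4% of the class. They were 28S copies at chr21:8259002-8260971, chr21:8214773-8218941, chr22_KI270733v1_random:133725-135280 and chr21:8442037-8446211, all on the plus strand, with mean levels of 952, 426, 879 and 169 CPM per kb of locus.

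The way fragments were divided among such copies differed from library to library more than their sum did. Over the 12 most abundant rRNA loci the median coefficient of variation across the 6 libraries was 32.5%, with a range of 14.8 to 164%, while that of the class sum was 9.14%. The 28S copy at chr21:8397807-8401980 stood at 287, 2343 and 14.05 CPM in the Clover libraries and 218, 359 and 36.9 CPM in the Z18trunc libraries. The copy at chrUn_GL000220v1:114239-118417 stood at 929.7, 2.28 and 786.8 CPM in Clover and 309, 190 and 1082 CPM in Z18trunc. Clover replicate 2 was thus highest at one of these copies and lowest at the other. Values at a single rRNA copy are for this reason uncertain, and the sums are the firmer measure.

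**Figure D2:**
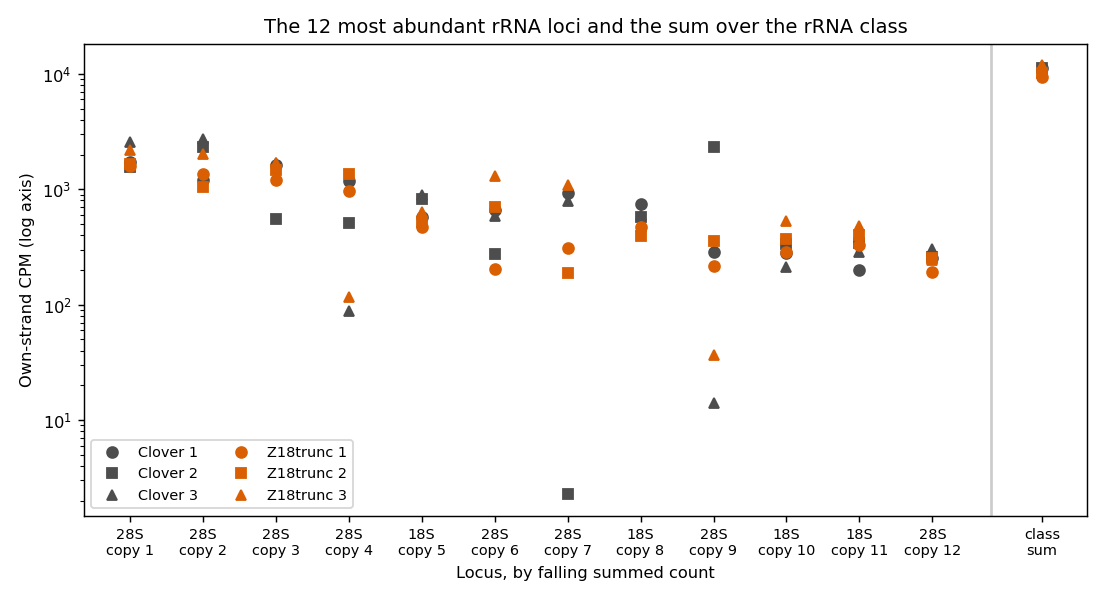
Own-strand CPM on a log axis at the 12 rRNA loci with the most fragments and, at the right, for the whole class, with 1 point per library (Clover grey, Z18trunc orange). Single copies differ up to 475-fold between libraries, at the 28S copy in seventh place, while the class sum differs at most 1.27-fold.

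Of 69 members with enough own-strand fragments for the edgeR test (at least 30 over the 6 libraries), 1 passed at an adjusted p under 0.05, beside 0.118% of all 12689 loci tested. It was such a 28S copy, at chr22_KI270733v1_random:178804-179772 on the plus strand. It stood at 0.563, 73.2 and 0.299 CPM in the Clover libraries and 0.750, 0.294 and 0.0586 CPM in the Z18trunc libraries, so 1 Clover library was high and the other two overlapped with Z18trunc. The log2 difference was -6.03 ± 1.19 (SE; edgeR, adjusted p = 0.0400), only 0.554% of its fragments were uniquely mapped, and without Clover replicate 2 the log2 difference was -0.28 (adjusted p = 0.945). Without adjustment, a p under 0.05 was reached by 4 members that were higher in Z18trunc and 17 that were lower, against 7.78% and 1.79% of all loci. With TMM scaling these counts were 2 and 23, against 3.83% higher and 4.55% lower over all loci on that scale. Several of the 17 lower members had 1 high Clover library. Among them were the called copy, RN7SK and the 28S copy at chr21:8397807-8401980 in replicate 2, and the BC200 copy on chromosome X in replicate 1. Near-identical copies that share fragments were also counted as separate members. On the CPM scale without Clover replicate 2, 4 of 61 members were higher and 12 lower, with no share over all loci given. The median log2 difference of the 69 members was -0.12, and 29 were higher and 40 lower. All 3 Z18trunc libraries were below all 3 Clover libraries at 8 members and above them at 2, where 3.7% and 11.9% of all loci tested did so. Of the 21 member subfamilies tested edgeR called 0, and an unadjusted p under 0.05 was reached by 0 in the upward and 4 in the downward direction. DESeq2 called 2 with its own size factors and 0 with those from aligned fragments, with no share over all subfamilies given. Over all 938 subfamilies edgeR called 0.64%, and 22.7% were higher and 0.533% were lower when p was not adjusted.

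7SL was the second class by abundance and the one with the largest difference in its sum. The class stood at 439, 293 and 224 CPM in the Clover libraries and 171, 209 and 236 CPM in the Z18trunc libraries. Clover replicates 1 and 2 were above all Z18trunc libraries, and Clover replicate 3 lay between Z18trunc replicates 2 and 3. Group means were 319 ± 110 CPM and 205 ± 32.4 CPM (SD, n = 3), a 0.664-fold level in Z18trunc. As a subfamily 7SL had a log2 difference of -0.63 ± 0.16 (SE; edgeR, adjusted p = 0.0675), which missed the threshold. The adjusted p was 0.00219 with TMM scaling and 0.00221 on uniquely mapped fragments. Without Clover replicate 1 the log2 difference was -0.33 (adjusted p = 0.192), so the size of the difference depended on that library. DESeq2 gave adjusted p = 0.241 with its own size factors and 0.146 with those from aligned fragments.

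Of the 299 loci of 7SL, RN7SL2 (chr14:49862550-49862849, minus strand) and RN7SL1 (chr14:49586580-49586879, plus strand), whose loci were identical at 297 of 301 aligned positions, held 96.1% of the fragments. RN7SL2 stood at 264, 168 and 130.5 CPM in the Clover libraries and 103, 121 and 137 CPM in the Z18trunc libraries. RN7SL1 stood at 164, 115 and 85.1 CPM in Clover and 60.6, 77.8 and 86.7 CPM in Z18trunc. At both genes Clover replicate 1 was highest, Z18trunc replicate 1 lowest, and Clover replicate 3 fell among the Z18trunc libraries. Log2 differences were -0.64 ± 0.24 for RN7SL2 and -0.69 ± 0.23 for RN7SL1 (SE; edgeR, adjusted p = 0.390 and 0.307). The ratio of RN7SL2 to RN7SL1 was 1.46 to 1.69 in all libraries, so both moved together. On uniquely mapped fragments RN7SL2 stood at 111, 69.4 and 57.4 CPM in Clover and 45.2, 48.7 and 54.2 CPM in Z18trunc, and there the groups did not overlap. On the same fragments RN7SL1 stood at 83.8, 59.6 and 42.2 CPM in Clover and 31.3, 38.1 and 40.1 CPM in Z18trunc. At both genes Clover replicate 3 lay only just above the highest Z18trunc library. The edgeR test on these fragments called both genes lower in Z18trunc, with log2 differences of -0.68 ± 0.12 for RN7SL2 and -0.76 ± 0.13 for RN7SL1 (SE; adjusted p = 0.000294 and 4.03e-05), beside 0.285% of the 9137 loci tested on them. The edgeR fit shares its estimate of spread among loci, so these SEs can understate the spread between the Clover libraries. For the class sum on unique fragments the exact permutation p was 0.1, the smallest possible.

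**Figure D3:**
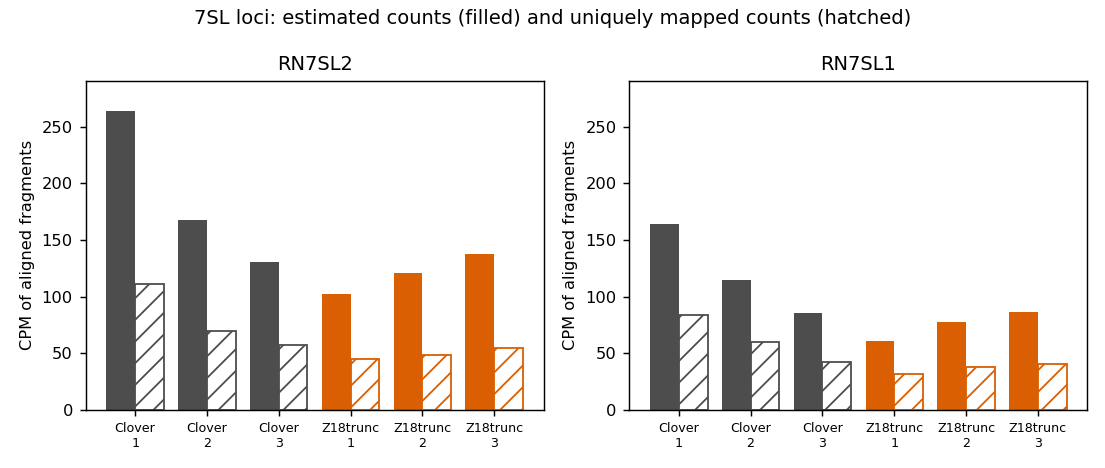
CPM (linear axis from 0) of RN7SL2 and RN7SL1 in each library, with filled bars for estimated counts and hatched bars for uniquely mapped counts, Clover in grey and Z18trunc in orange. Clover replicate 1 is highest in both panels, at 264 and 164 CPM, and on unique counts all Z18trunc libraries lie below all Clover libraries.

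RN7SL3, the third 7SL gene of the same chromosome (chr14:49853615-49853914, minus strand), was rare by comparison, with 4.61 CPM per kb against 513 for RN7SL2 and 327 for RN7SL1. It stood at 2.41, 2.14 and 1.20 CPM in Clover and 0.182, 1.18 and 1.18 CPM in Z18trunc, so all Z18trunc libraries were lower, with Clover replicate 3 only just above. Its log2 difference was -1.20 ± 0.38 (SE; edgeR, adjusted p = 0.296). The pseudogene RN7SL5P (chr9:9442060-9442294, plus strand) stood between 0.655 and 3.28 CPM, and only 0.516% of its fragments were unique. Of the remaining 7SL loci with fragments most had next to none: 139 of the 204 loci had at most 3 fragments over all libraries.

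BC200 made up most of the scRNA class. BCYRN1, its gene (chr2:47335315-47335514, plus strand), stood at 33.0, 47.1 and 40.5 CPM in the Clover libraries and 39.6, 34.9 and 42.6 CPM in the Z18trunc libraries. The lowest and the highest value were both in Clover, and the log2 difference was -0.04 ± 0.18 (SE; edgeR, adjusted p = 0.963). A near copy on chromosome X (chrX:139720579-139720775, plus strand) stood at 6.63 CPM in Clover replicate 1, 0.751 CPM in Z18trunc replicate 1 and 0 in the other four libraries, and 1.21% of its fragments were unique. Clover replicate 1 was the library in which BCYRN1 was lowest. Summed over its loci BC200 stood at 42.7 ± 4.01 CPM in Clover and 39.8 ± 4.11 CPM in Z18trunc (SD, n = 3; log2 difference -0.10 ± 0.11, SE).

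The Y RNAs HY1, HY3 and HY4, bound by Ro and La proteins, summed to 2.32, 5.69 and 0.392 CPM in Clover and 2.68, 6.36 and 0.488 CPM in Z18trunc (means of 3). Their log2 differences were 0.20 ± 0.24, 0.15 ± 0.15 and 0.31 ± 0.42 (SE), none past the edgeR test (adjusted p = 0.596, 0.519 and 0.649). The most abundant copies of HY3 and HY1 lie in the UTRs of mRNAs. An HY3 copy 8% from its consensus in ALDH9A1 (chr1:165662587-165662687, minus strand) stood at 3.78, 3.19 and 3.16 CPM in Clover and 3.12, 2.96 and 3.48 CPM in Z18trunc. An HY1 copy in PAQR5 (chr15:69406441-69406558, plus strand) stood between 0.623 and 1.21 CPM. In both the groups overlapped.

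7SK was rare in these poly(A) libraries. The class stood at 3.83, 7.74 and 4.23 CPM in the Clover libraries and 4.01, 3.57 and 4.91 CPM in the Z18trunc libraries, and its gene RN7SK (chr6:52995620-52995951, plus strand) held 60.6% of it. RN7SK itself stood at 2.25, 5.79 and 2.45 CPM in Clover and 2.18, 1.81 and 2.71 CPM in Z18trunc. Clover replicate 2 was high and the other five libraries overlapped, with a log2 difference of -0.62 ± 0.27 (SE; edgeR, adjusted p = 0.456). Without Clover replicate 2 the class difference turned from -0.28 to 0.04 on the log2 scale. The other named 7SK loci, RN7SKP80 (chr22:42565062-42565327) and RN7SKP16 (chr1:33336625-33336864), had 22 to 25.1 fragments each over all libraries, too few for the test.

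The snRNA class spread over many small loci, with its 4 most abundant ones holding only 26.2% of the fragments. It stood at 14.3, 24.1 and 14.9 CPM in the Clover libraries and 16.4, 17.1 and 16.7 CPM in the Z18trunc libraries. Clover replicate 2 was highest, the other two Clover libraries lowest, and the mean log2 difference was -0.04. Without Clover replicate 2 it was 0.20, with all Z18trunc libraries above the 2 Clover libraries left (exact permutation p = 0.2, the smallest that 3 against 2 can give).

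Clover replicate 2 stood above every other library for U1, U2, U3 and U4. U2, which pairs with the branch site, stood at 4.76 CPM there and at 0.534 to 1.48 CPM in the other libraries. U1, which pairs with the 5′ splice site, stood at 5.28 CPM against 1.74 to 3.14 CPM, and U4, the partner of U6, at 1.15 CPM against 0.0890 to 0.623 CPM. U3, which guides the cutting of pre-rRNA, stood at 3.45 CPM against 0.712 to 1.65 CPM. Relative to the median of the other five libraries, replicate 2 was 4.56-fold higher for U2, 3.29-fold for U3, 3.02-fold for U4, 2.58-fold for U1, 1.93-fold for 7SK and 1.52-fold for 5S. It was 4.76-fold higher for U5 and 2.35-fold for U7, but these had only 27 and 8 fragments over all libraries. The ratio was 1.28 for U17, 1.01 for U8, 0.934 for U6, 0.705 for U13, 0.627 for U13_ and 0.558 for U14. Among the spliceosomal RNAs given, U6 was thus the one not raised in that library, and the nucleolar RNAs did not go one way. None of U1, U2, U3 and U4 passed the edgeR test between the groups (adjusted p = 0.492, 0.469, 0.678 and 0.972).

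**Figure D4:**
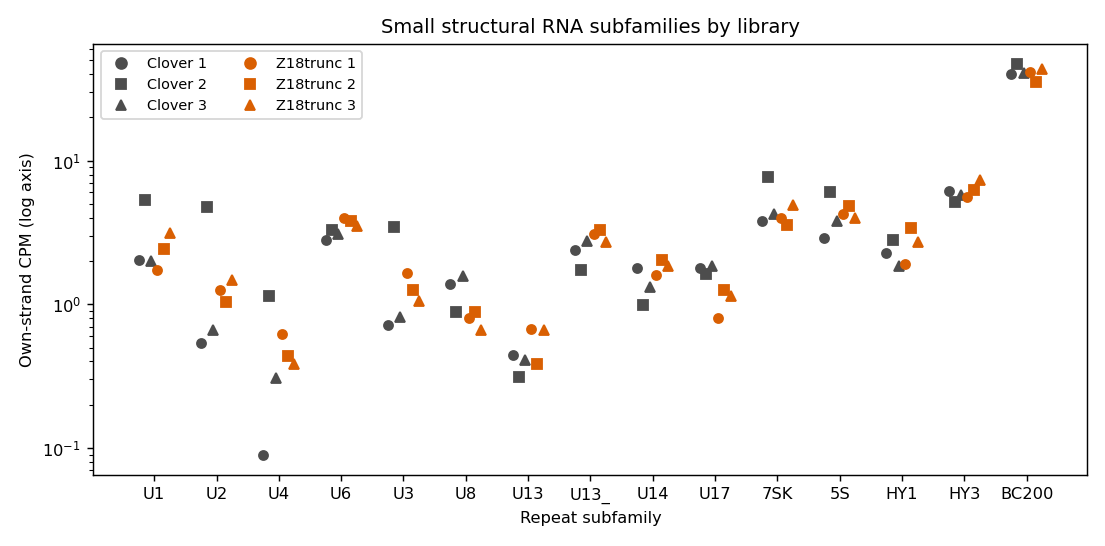
Own-strand CPM on a log axis of 15 small structural RNA subfamilies in each library (Clover grey, Z18trunc orange, with the replicate shown by the symbol). The grey square of Clover replicate 2 is above all other libraries for U1, U2, U3, U4, 7SK, 5S and BC200. U6 is higher in all Z18trunc libraries, and U8 and U17 are lower in all of them.

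U6, the catalytic partner in the spliceosome, differed the other way. It stood at 2.80, 3.29 and 3.11 CPM in the Clover libraries and 3.96, 3.79 and 3.52 CPM in the Z18trunc libraries, with no overlap, and the log2 difference was 0.30 ± 0.17 (SE; edgeR, adjusted p = 0.294). That is close to the median of 0.21 over all subfamilies, of which 27.0% were higher in every Z18trunc library. Its locus RNU6-8 (chr14:32203164-32203269) stood at 0.623, 0.836 and 0.713 CPM in Clover and 1.25, 0.878 and 0.884 CPM in Z18trunc, again with no overlap, while the gene table gave RNU6-8 at 1.75 ± 0.823 TPM in Clover and 0.619 ± 0.198 TPM in Z18trunc (SD, n = 3), in the opposite direction. The gene symbol and the repeat locus thus do not give the same reading.

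U17, an H/ACA RNA of pre-rRNA processing hosted by SNHG3, stood at 1.78, 1.62 and 1.83 CPM in the Clover libraries and 0.802, 1.26 and 1.14 CPM in the Z18trunc libraries. All Z18trunc libraries were lower, where 1.81% of all subfamilies tested were, and the log2 difference was -0.72 ± 0.27 (SE; edgeR, adjusted p = 0.131), while on uniquely mapped fragments it was -1.09 (adjusted p = 0.0491). The difference lay at SNORA73B (chr1:28508558-28508759), which stood at 1.20, 0.941 and 0.917 CPM in Clover and 0.223, 0.494 and 0.476 CPM in Z18trunc, a log2 difference of -1.37 ± 0.40 (SE; edgeR, adjusted p = 0.246). SNORA73A (chr1:28507365-28507571) stood at 0.579, 0.680 and 0.917 CPM in Clover and 0.579, 0.768 and 0.572 CPM in Z18trunc, with overlap. In the gene table SNORA73B stood at 8.14 ± 1.26 TPM in Clover and 3.47 ± 1.05 TPM in Z18trunc (SD, n = 3; limma, log2 difference -1.05 ± 0.19, SE, adjusted p = 0.0773), while the host SNHG3 stood at 41.0 ± 14.7 and 65.5 ± 21.2 TPM (log2 difference 0.67 ± 0.29, SE; limma, adjusted p = 0.186). Neither passed the test.

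U8, a C/D snoRNA for 28S and 5.8S maturation, was measured at SNORD118 (chr17:8173453-8173588, minus strand), which overlaps the UTR of TMEM107. The locus stood at 1.29, 0.836 and 1.58 CPM in Clover and 0.802, 0.878 and 0.667 CPM in Z18trunc, and Clover replicate 2 fell among the Z18trunc libraries. Summed over its loci U8 stood at 1.38, 0.889 and 1.58 CPM in Clover and at the same Z18trunc values, without overlap, and the log2 difference was -0.72 ± 0.32 (SE; edgeR, adjusted p = 0.185). U14, a C/D snoRNA that lies within host genes, had a locus at SNORD14B (chr11:17075779-17075868) that overlaps an annotated exon of RPS13. That locus stood at 0.579, 0.157 and 0.153 CPM in Clover and 0.802, 0.823 and 0.619 CPM in Z18trunc. There all Z18trunc libraries were higher, and the log2 difference was 1.27 ± 0.50 (SE; edgeR, adjusted p = 0.415). SNORD14C, which overlaps a UTR of HSPA8 (chr11:123059335-123059422), went the other way, at 0.401, 0.418 and 0.408 CPM in Clover and 0.267, 0.274 and 0.286 CPM in Z18trunc, with no overlap and a log2 difference of -0.56 ± 0.53 (SE; edgeR, adjusted p = 0.794). Fragments of the snoRNA and of the host mRNA cannot be told apart at such loci. At SNORD14A, at SNORD14D and in the U14 sum the groups overlapped. The most abundant locus of the whole class, a U13_ copy 18.7% from its consensus in the UTR of ZNF275 (chrX:153351472-153351578), stood at 1.60, 0.784 and 2.14 CPM in Clover and 2.18, 2.63 and 1.62 CPM in Z18trunc. SNORD3A, the U3 gene at chr17:19188016-19188232, stood at 2.83 CPM in Clover replicate 2 and 0.137 to 1.04 CPM elsewhere.

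tRNA loci were nearly silent on their own strand. The class stood at 1.78, 2.35 and 1.88 CPM in the Clover libraries and 1.47, 1.48 and 1.91 CPM in the Z18trunc libraries, and 42 of its 52 loci with fragments had at most 3. A single locus, tRNA-Gln-CAA_ at chr1:629499-629570, held 42.3% of the fragments. It stood at 0.935, 1.10 and 1.12 CPM in Clover and 0.490, 0.384 and 0.572 CPM in Z18trunc, so all Z18trunc libraries were lower, with a log2 difference of -1.10 ± 0.36 (SE; edgeR, adjusted p = 0.307). Its neighbour tRNA-Ser-TCA(m) at chr1:632619-632685 stood between 0.0953 and 0.680 CPM, with overlap. Only 14.9% and 20% of the fragments at this pair were unique, and they differ from their tRNA consensus by 16.7% and 13.4%.

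The other 91 tRNA loci had 93 own-strand fragments in all and went the other way. They stood at 0.445, 0.575 and 0.662 CPM in Clover and 0.757, 0.878 and 1.24 CPM in Z18trunc, a mean log2 difference of 0.76 with no overlap (exact permutation p = 0.1, the smallest possible). These loci were set apart after the values were seen, by leaving out the pair whose means were lower in Z18trunc. Their direction and this p therefore partly follow from that choice. On uniquely mapped fragments the whole class had a log2 difference of 0.67, also with no overlap. The pair had only 14 and 7 unique fragments, so that sum came mostly from the same 91 loci and is not separate support. tRNA-Ser-TCY in an exon of CTC1 (chr17:8226607-8226691) and tRNA-Gly-GGY (chr21:17454786-17454859) were the next in abundance, with 8 and 7 fragments over all libraries.

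On the opposite strand the classes behaved differently. For tRNA this was the main strand, since only 8.39 to 11.2% of its fragments were own-strand, against 99.6 to 99.8% for rRNA and 66.5 to 78.0% for snRNA. Opposite-strand tRNA fragments stood at 17.9, 18.7 and 19.8 CPM in the Clover libraries and 16.0, 15.6 and 16.3 CPM in the Z18trunc libraries, with no overlap (mean log2 difference -0.23, exact permutation p = 0.1, Benjamini-Hochberg p = 0.15). The tRNA-Ser-TCA(m) locus gave 86.6% of them, at 15.4, 17.1 and 17.5 CPM in Clover and 13.8, 12.8 and 13.8 CPM in Z18trunc. It begins next to the end of MTCO1P12, a pseudogene of mitochondrial COX1 on the opposite strand of this repeat. Only 23.1% of these fragments were unique, and on unique fragments the class groups overlapped (log2 difference -0.13). At the other 91 loci the opposite-strand sum was 0.903 ± 0.249 CPM in Clover and 1.27 ± 0.133 CPM in Z18trunc (SD, n = 3).

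Opposite-strand fragments of scRNA loci stood at 3.16, 2.14 and 2.03 CPM in Clover and 3.43, 3.62 and 4.33 CPM in Z18trunc. Those of 7SK loci stood at 0.401, 0.418 and 0.204 CPM in Clover and 0.713, 0.658 and 0.905 CPM in Z18trunc. In both classes all Z18trunc libraries were higher, by 1.58-fold and 2.32-fold (exact permutation p = 0.1 each, Benjamini-Hochberg p = 0.15). The 7SK sum rests on only 68 fragments over the 6 libraries. On their own strand the repeat classes LINE, LTR and DNA were also higher in every Z18trunc library, by 1.17-, 1.16- and 1.15-fold. SINE was 1.08-fold higher with overlap. Opposite-strand sums of these repeat classes were not compared, so the scRNA and 7SK rises have no background on that strand. The largest contributor for scRNA lies opposite to an exon of an mRNA gene: an HY4 copy within CCNL1 (chr3:157153548-157153635) stood at 0.160 ± 0.0593 CPM in Clover and 0.420 ± 0.0491 CPM in Z18trunc (SD, n = 3). It gave only 9.33% of the scRNA sum, from 36 fragments. At the next copies in size, an HY3 copy opposite to POLR1B (8.15%) and an HY4 copy at chr11:118994560-118994652 (7.77%), the groups overlapped. For 7SL the opposite strand went down slightly, from 9.07 ± 0.273 to 7.88 ± 0.392 CPM (SD, n = 3; exact permutation p = 0.1, no overlap), and 52.0% of that sum came from a copy opposite to PRKCSH (chr19:11450529-11450606). For snRNA (6.60 ± 0.721 and 6.94 ± 1.02 CPM) and rRNA (30.9 ± 15.2 and 18.2 ± 2.53 CPM, SD, n = 3) the groups overlapped.

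**Figure D5:**
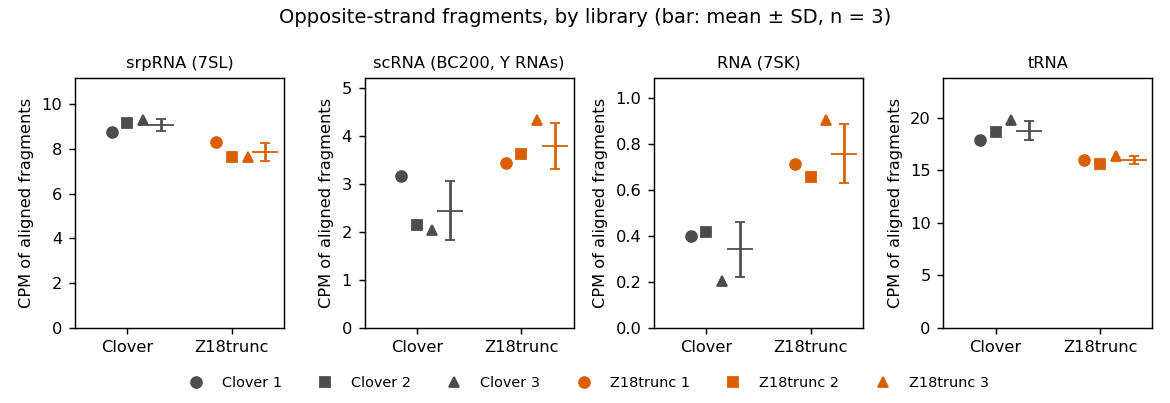
CPM (linear axis from 0) of fragments on the strand opposite to the repeat for the 4 classes whose groups do not overlap, with Clover in grey, Z18trunc in orange and the bar at the mean ± SD of 3 libraries. All Z18trunc libraries are lower for srpRNA and tRNA and higher for scRNA and RNA, with each exact p at 0.1, the smallest possible.

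Gene context separated the classes too. By GENCODE 44, exons on the same strand held 99.6% of srpRNA fragments, 95.4% of scRNA, 91.3% of RNA and 92.8% of snRNA fragments. Among snRNA fragments 52.5% lay in exons of small RNA genes alone and 31.7% in exons that also belong to a protein-coding gene. For rRNA 41.6% of fragments lay on contigs without annotation and 41.1% within genes on the same strand but outside exons. That second sum stood at 4243, 6727 and 4467 CPM in the Clover libraries and 3810.3, 4141 and 3742 CPM in the Z18trunc libraries, with no overlap (exact permutation p = 0.1). Its log2 difference was -0.37, or -0.16 without Clover replicate 2 and -0.16 with overlap on uniquely mapped fragments. The sum also depends on how fragments were divided among near-identical copies inside and outside genes, whose part in this difference was not tested. The contigs had 4327 ± 1260 and 4699.6 ± 1047 CPM (SD, n = 3), with overlap. For tRNA the sum in exons was 0.130 ± 0.0243 CPM in Clover and 0.356 ± 0.0949 CPM in Z18trunc (SD, n = 3), from 30.3 fragments in all, with no overlap (exact permutation p = 0.1). The sum within genes but outside exons, which includes the chromosome 1 pair, was 1.54 ± 0.346 and 0.888 ± 0.145 CPM (SD, n = 3), also with no overlap, while on uniquely mapped fragments its log2 difference turned from -0.79 to 0.04 and the groups overlapped.

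The rule used no sequence, yet the classes differed in the letters at and after their loci. Searched on the repeat's strand, a run of AAAAAAAA stood within the 50 bases after the end at 29.3% of scRNA and 18.9% of snRNA loci with own-strand fragments, against 2.88% of all other repeat loci with such fragments, 2.06% of rRNA, 1.96% of srpRNA and 0 of the 52 tRNA loci. A run of TTTT stood in the same window at 78.8% of tRNA loci, against 31.6% of the other repeats. GGTTCGA stood inside 53.8% of tRNA loci, 10.3% of rRNA loci and 0.299% of the other repeats. Inside the locus AAAAAAAA stood at 20.1% of srpRNA and 7.19% of scRNA loci, against 30.8% of the other repeats. These are counts of letters in a window, and no match says only that the letters are not there. Loci within 5% of their consensus were 14.6% of all members and held 99.5% of the members' fragments. By class they held 97.3% of srpRNA, 81.8% of scRNA, 69.4% of RNA, 44.3% of snRNA and 30.6% of tRNA fragments.

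Genes of the machinery that makes, binds or trims these RNAs were read from the gene tables in TPM. Of 144 such genes tested in 9 lists, limma called 0, beside 0.015% of 13300 genes, and without adjustment 38 were higher and 2 were lower in Z18trunc at a p under 0.05. Over all genes 25.6% and 2.9% were, so the lists' share was near the background. With genes limited to a mean of at least 5 TPM, limma called 5 of them, INTS8, PARN, PHAX, RRN3 and XPOT, all at the same adjusted p of 0.0486, beside 4.75% of the 9973 genes tested there. The median log2 difference of the lists was 0.13 against 0.11 over all genes. With quantile normalization the counts were 20 and 11, against 12.8% higher and 10.9% lower over all genes, and the medians 0.04 and -0.01, so the excess of higher genes depended on the scaling. Among the genes with the smallest p of their list was PHAX, the export adaptor of snRNA, at 14.06, 14.05 and 14.1 TPM in Clover and 19.04, 18.4 and 22.8 TPM in Z18trunc, with no overlap and a log2 difference of 0.48 ± 0.09 (SE; limma, adjusted p = 0.0773).

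The others in that position were RRN3, which recruits RNA polymerase I (log2 difference 0.41), POLR3B, the second largest subunit of RNA polymerase III (0.57), SRP54, the GTPase that sits on 7SL (0.39), LARP4 (0.27), PRPF3, a protein of the U4 and U6 particle (0.37), XPOT, the export receptor of tRNA (0.45), and PARN, the deadenylase that trims noncoding RNAs (0.38). All stayed positive with quantile normalization. HEXIM2, which 7SK uses to bind P-TEFb, was the one lower gene in that position, with a log2 difference of -0.31 ± 0.07 (SE; limma, adjusted p = 0.0800). The counts per list that follow are those at a p under 0.05 without adjustment. rRNA transcription and processing had 22 tested with 7 higher and 0 lower, and the RNA polymerase III machinery 27 with 5 and 0. The SRP proteins had 6 tested with 3 and 0, the 7SK particle 7 with 3 and 1, and the La and Ro proteins 6 with 0 and 0. Spliceosomal snRNP proteins had 26 tested with 3 and 0, snRNA 3′ end processing and assembly 22 with 8 and 0, tRNA processing 18 with 4 and 0, and oligoadenylation and trimming 10 with 5 and 1. Members of the spliceosomal list thus had the fewest such genes for its size after the La and Ro list.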

How the data were processed

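PolyA-selected, stranded, paired-end RNA-seq libraries of SW480 cells were compared, 3 Clover and 3 Z18trunc. The submitters' processing notes name cutadapt 4.6 and hg38. The authors quantified repeats with SQuIRE, whose deposited tables give, per locus and strand, uniquely mapped fragment counts, estimated counts that also divide multiply mapped fragments among loci, FPKM values, which were not used, and a divergence score. The deposited gene tables give TPM values. Dividing fragments makes counts of near-identical copies depend on each other.

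Estimated counts on the repeat's own strand were rounded for edgeR 4.0.16 (quasi-likelihood test, all loci with at least 30 counts over 6 libraries, library size = aligned fragments, without TMM in the reported values). Class sums in CPM were compared by exact two-sided permutation of mean log2 values. Genes with a mean of at least 1 TPM were tested as log2(TPM + 1) with limma 3.58.1, so that fold changes of low genes are understated, and adjusted p-values are Benjamini-Hochberg over all features tested. DESeq2 1.42.0, Python 3.11.15, SciPy 1.17.1 and bedtools 2.31.1 served for alternatives and overlaps, and the scripts were tested on simulated data. Gene context and sequences came from GENCODE 44 and the hg38 genome, whose spans for 5 genes lay within 5 bases of those in the deposited tables.

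Named loci and subfamilies are the 4 with the largest own-strand sum in each class and every one called. The subfamilies U2, U3, U4, U8 and U17, the loci SNORA73A, SNORA73B and the U14 loci, the opposite-strand loci and the single RNA genes of the gene tables were named after their values were seen, as were the rRNA copies at chr21:8397807 and chrUn_GL000220v1:114239 and the split of tRNA loci. Another named locus and some sequences are not reported here. Of each gene list the gene with the smallest p was named. Members and lists were chosen with earlier results of these data known. The study states that lines were made in triplicate, so p-values refer to the spread between these cultures. The edgeR and limma fits estimate that spread with information shared over features, which can understate it for a single locus or gene. The alternatives were other scalings, count minimums, uniquely mapped counts, DESeq2, leaving out each library and a replicate block. Depth was 18226033 to 22463310 aligned fragments per library. Without molecular identifiers the intervals cover counting error only.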

Additional observations from a re-analysis of the deposited data

How the results depend on the processing

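Of 373 values under 39 results, 336 kept their direction and 37 reversed. For class sums a change of call means that the groups came to overlap or ceased to, since p cannot fall below 0.1 (0.2 with 1 library left out), and all differences here are log2 of Z18trunc over Clover. The causes of the changes were not tested. With TMM scaling groups ceased to overlap for rRNA (-0.31), srpRNA (-0.76), scRNA (-0.22) and tRNA (-0.48). Relative to the repeat counts of both strands they ceased to overlap for rRNA (-0.26), srpRNA (-0.71), its exons (-0.71), tRNA (-0.43) and opposite-strand rRNA (-0.78), and the sign turned for opposite-strand snRNA (-0.051), rRNA in exons (-0.0052), scRNA in exons (-0.11) and tRNA outside genes (-0.11). On uniquely mapped counts groups separated for srpRNA (-0.62), its exons (-0.63), snRNA outside genes (0.99) and, with a turned sign, snRNA (0.20) and tRNA (0.67), and came to overlap for opposite-strand tRNA (-0.13) and rRNA within genes (-0.16). Signs turned there for scRNA (0.011), its exons (-0.0086), snRNA in exons (0.20) and within genes (-0.21), tRNA within genes (0.042), opposite-strand rRNA (0.12), and rRNA opposite to genes (-0.27), outside genes (0.18) and on contigs without annotation (-0.13). Without the most abundant locus 7SK stood at 0.12 and tRNA at 0.27. On chromosomes 1 to 22, X and Y alone rRNA stood at -0.30 without overlap, and tRNA loci with at least 30 counts at -1.11 without overlap.

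Leaving out each library in turn gave -0.24 to -0.063 for rRNA, -0.82 to -0.33 for srpRNA, -0.11 to 0.013 for scRNA, -0.47 to 0.036 for 7SK, -0.18 to 0.20 for snRNA and -0.43 to -0.19 for tRNA. On the opposite strand the range was -0.95 to -0.29 for rRNA and -0.041 to 0.17 for snRNA. By gene context it was, for rRNA, -0.15 to 0.43 in exons, -0.23 to 0.14 outside genes and -0.12 to 0.32 on contigs. It was -0.82 to -0.33 in exons and 0.0496 to 0.65 within genes for srpRNA, and -0.10 to 0.10 in exons, 0.17 to 0.47 within genes and -2.48 to 1.05 outside genes for scRNA. It was 0.49 to 1.10 within genes for 7SK, -0.22 to 0.19 in exons, -0.052 to 0.50 within genes and 0.15 to 0.52 outside genes for snRNA, and -0.34 to 0.50 outside genes for tRNA. Of the own-strand class sums, those of 7SK and snRNA were positive, among these 6 omissions, only without Clover replicate 2, and rRNA within genes ranged from -0.49 to -0.16, the latter without the same library.

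Member loci called numbered 1, and 0 with TMM scaling or at least 100 counts, 3 at 10 counts, 4 and 1 with DESeq2 (its own and aligned-fragment size factors), 5 on unique counts (1 higher and 4 lower) and 0 to 4 leaving out a library (4 without Clover replicate 1, 2 without Clover replicate 3 and 0 without any Z18trunc library). Member subfamilies called numbered 0, and 3 with TMM scaling, 2 with DESeq2's own size factors, 2 on unique counts and 0 to 3 leaving out a library (3 without Z18trunc replicate 3, and 7SL alone without Clover replicate 2 or 3). Partner genes called numbered 0, and 5 where a mean of 5 TPM was required. Over all features the main fits called 0.118% of loci, 0.64% of subfamilies and 0.015% of genes. The share was 0.285% of loci on unique counts and 4.75% of genes with a mean of at least 5 TPM. For the other settings no share over all features is given, so those counts of members have no background beside them.

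Replicate numbers are shared between groups, but same-numbered libraries did not deviate together (correlations of deviations -0.037 to 0.017), so they share only a number. With the replicate block 3 loci and 1 subfamily (7SL, log2 difference -0.59) were called in place of 1 and 0. Loci with few fragments limit the tests: 616 of 924 had at most 3.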

Other observations

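The gene tables also hold structural RNAs outside the repeat classes, such as 5.8S, RMRP, RPPH1 and TERC. The 5.8S gene RNA5-8SN4 stood at 767 TPM in Clover replicate 2 and at 128 to 172 TPM in the other five libraries, a 5.82-fold excess over their median. RMRP, the RNA of RNase MRP, stood at 21.9 TPM there and at 3.99 to 9.02 TPM elsewhere. Of genes that the repeat classes also cover, RNU2-1 (U2) stood at 31.1 TPM against 2.79 to 5.34 TPM, and SNORD3A (U3) at 23.3 TPM against 0.796 to 10.8 TPM. RPPH1, the RNA of RNase P, did not share this, with 9.52 TPM in Clover replicate 2 and 9.55 to 14.8 TPM in the other libraries. None of these 5 genes passed the limma test between the groups.

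TERC, the telomerase RNA, stood at 7.63, 6.62 and 9.10 TPM in the Clover libraries and 11.9, 11.2 and 10.3 TPM in the Z18trunc libraries. All Z18trunc libraries were higher, and the log2 difference was 0.48 ± 0.12 (SE; limma, adjusted p = 0.0832), which missed the threshold.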
